A study of Mus musculus with 10 samples.

Results

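The data compared here are those of mouse embryonic stem cells (ESCs) in which the homeobox gene Otx2 was switched on at a very high level and of cells that had become epiblast-like cells (EpiLCs) by differentiation. The comparison takes 4 of the 10 RNA-seq libraries of the series, chosen by their labels: 1 library of Otx2-/- ESCs that carry a tetON Otx2 transgene and were grown with doxycycline (dox), and the 3 EpiLC libraries with an intact Otx2 gene. The dox library came from cells in ESC medium, which is serum-free N2B27 with LIF and with inhibitors of MEK (0.8 µM PD0325901) and of GSK3 (3.3 µM CHIR99021). The EpiLC libraries came from the R1 line without activin A, from R1 with activin A at 20 ng/ml, and from the E14 line, for which the labels do not say whether activin A was given. EpiLCs were made in N2B27 with bFGF, labelled as 12 µg/ml, and 1% knockout serum replacement for 48 h. Cells of all groups were labelled as 129SV.

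Other libraries set the scale. They were 3 of R1 and E14 ESCs, 1 of the Otx2-/- tetON ESCs without dox, 1 of Otx2-/- ESCs and 1 of Otx2-/- EpiLCs without the transgene. The dox library thus differed from the EpiLC libraries in its line, its medium and coating (laminin for ESCs and fibronectin for EpiLCs), the presence of dox and the level of Otx2 all at once, and these cannot be told apart in a direct comparison. The sources used here do not give the dose and duration of dox, the number of clones behind the transgenic line or the part of Otx2 that was deleted. Values of 3 libraries are given below in the order R1 replicate 1, R1 replicate 2 and E14 for ESC, and R1 without activin A, R1 with activin A and E14 for EpiLC.

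Naive pluripotency, the state of the preimplantation epiblast, rests on factors such as Klf4, Esrrb and Nanog, and in culture it is held by LIF signalling through Stat3 together with inhibition of the kinases MEK and GSK3. On release into FGF-containing medium, ESCs pass within days to a formative state like the early postimplantation epiblast, which expresses Fgf5, Pou3f1 and the DNA methyltransferases Dnmt3a and Dnmt3b. Otx2, a paired-type homeodomain protein, is one of the factors that rise in this step, and later it is known for its part in the forebrain, the eye and the anterior visceral endoderm.

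Library depth, approximated from the smallest steps among FPKM values of olfactory receptor genes, was between 6.55M and 20.6M fragments, lowest in E14 EpiLC and at 9.16M in the dox library. FPKM summed to between 585995 and 680016 per library, highest in the dox library. FPKM (fragments scaled to transcript length and library size) are relative levels, and in these bulk samples fewer cells of a type and less RNA per cell cannot be told apart. All 7 EpiLC markers used here were higher in every EpiLC library than in every ESC library, and all 7 naive markers were lower, in accordance with the labels.

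Otx2 (mm9, chromosome 14 at 49277859 to 49282547) stood at 5.72, 9.09 and 3.96 FPKM in ESC and 107, 151 and 39.9 FPKM in EpiLC. It was 45.8 FPKM in the tetON cells without dox and 1059 FPKM with dox, where reads of the transgene count with those of the gene. The Otx2-/- libraries without the transgene still listed 7.85 FPKM in ESC and 15.8 in EpiLC. The dox library lay above every EpiLC library, while the tetON cells without dox already lay inside the EpiLC range. Against EpiLC the log2 difference 3.60 ± 0.73 (SE), adjusted p = 0.0279 in limma, which is close to the threshold, since adjusted p ran between 0.0121 and 0.0713 over the 15 alternative fits. It was above 0.05 without E14 ESC, without R1 EpiLC without activin A, and with the dox and EpiLC libraries fitted alone.

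Across the transcriptome the dox library differed from EpiLC at many genes, in both directions. Of 12364 genes tested with limma, 934 (7.55%) were higher in the dox library than in EpiLC and 706 (5.71%) were lower at an adjusted p under 0.05. A difference of at least 2-fold was seen in 769 of the former and 538 of the latter. The labels speak of independent biological replicates, 2 of each state, while 3 libraries of each state, over 2 lines and with and without activin A, were used as replicates here. The single dox library was assumed to vary like them, and the p-values measure the spread among those few libraries, which includes activin A and line. The counts were larger without R1 ESC replicate 1, at 1657 and 1275. They were smaller without E14 ESC (520 and 343), without R1 EpiLC without activin A (329 and 192) and without R1 EpiLC with activin A (425 and 283). For 908 of the higher and 664 of the lower genes, the Otx2-/- EpiLC library lay within 2-fold of the EpiLC mean, a count added after seeing the data. The share of all tested genes within that range was not counted, and the part of the line in these differences was not tested. More of the calls were higher than lower (57%), but this balance depended on scaling: with each library set to one FPKM sum counted without Otx2, 733 were higher and 990 lower (42.5% higher), with the median of all genes at -0.11.

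The distance travelled was measured gene by gene over the genes that separate EpiLC from ESC. In limma with line as a covariate, 754 of 12244 genes (6.16%) were raised in EpiLC and 673 (5.5%) were lowered by 2-fold or more, and 752 and 667 of these could be placed. The sets were smaller without 1 library, at 210 raised and 181 lowered without R1 EpiLC without activin A, 475 and 327 without E14 ESC, 422 and 316 without E14 EpiLC, and 317 and 271 without R1 EpiLC with activin A. Each library was given a position on log2(FPKM + 1), with the ESC mean at 0% and the EpiLC mean at 100%. A gene within 25 points of the EpiLC mean is called reached and one farther beyond it overshot. A gene within 25 points of the ESC mean is called not reached, one between these ranges part way, and one farther off on the other side of ESC opposite. The positions share the EpiLC libraries with the direct comparison, and they rest on 1 dox library, so they are a description with no test.

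Genes lowered in EpiLC had gone farther in the dox library than genes raised in EpiLC. Of the 752 raised genes, 100 (13.3%) reached the EpiLC level, 61 (8.1%) overshot it, 231 (30.7%) were part way, 281 (37.4%) were not reached and 79 (10.5%) lay on the opposite side of ESC. Their median position was 27.6%, with quartiles at -1.1% and 65.5%. Of the 667 lowered genes, 162 (24.3%) reached the EpiLC level, 31 (4.6%) overshot, 245 (36.7%) were part way, 157 (23.5%) were not reached and 72 (10.8%) were opposite, with a median of 46% and quartiles at 9.2% and 79.1%. The size of this gap depended on the pseudocount, the value added to FPKM before the log. The medians for raised and lowered genes were 32.5% and 40.6% at 0.1, and 17.5% and 54% at 5.

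The same positions in the other libraries give the spread of this measure. The tetON cells without dox stayed near ESC, with medians of 2.6% for raised and 1.4% for lowered genes, and 7 of 752 raised and 7 of 667 lowered genes at or beyond the EpiLC level. The Otx2-/- EpiLC library had medians of 86.8% and 97.7%. Single EpiLC libraries, which help to set the scale, had 20 (R1 without activin A), 40 (R1 with activin A) and 157 (E14) raised genes at part way. The share of genes reached in the dox library was between 10% and 14.1% for raised and between 22.2% and 23.9% for lowered genes when 1 ESC or EpiLC library was left out.

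**Figure D1:**
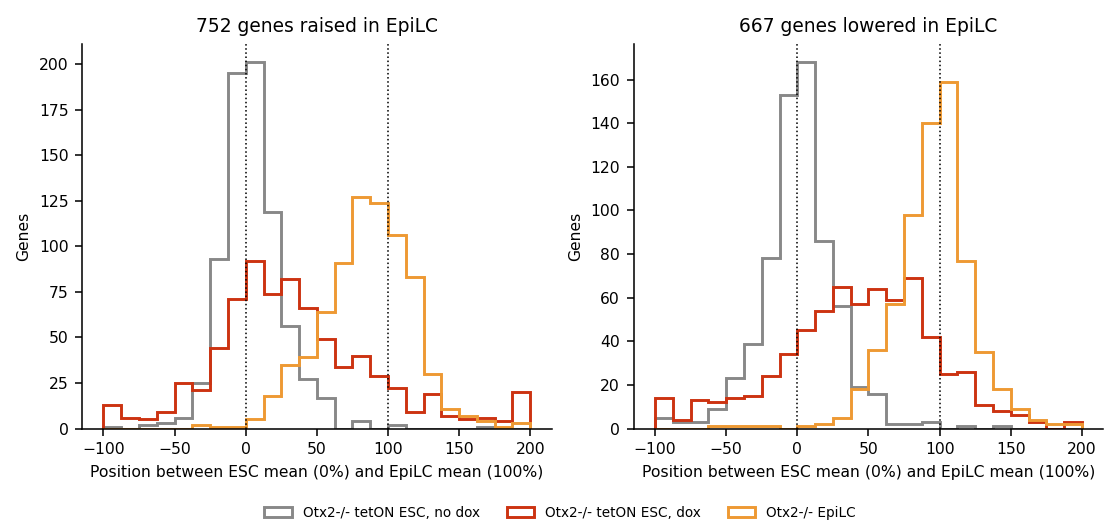
Positions of 3 single libraries between the ESC mean (0%, dotted line) and the EpiLC mean (100%, dotted line) on log2(FPKM + 1), as counts of genes, for the 752 genes raised (left) and the 667 genes lowered (right) in EpiLC. Values beyond the ends of the axis are counted in the last bins. The dox library (red) is spread from the ESC to the EpiLC level with medians of 27.6% and 46%, the library without dox (grey) centres on ESC, and the Otx2-/- EpiLC library (orange) centres near EpiLC.

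The naive programme was only partly left. Of 20 naive pluripotency genes tested, 13 were higher in the dox library than in EpiLC and 0 were lower, with a median log2 difference of 1.73 against 0.04 over all genes. Between 9 (without E14 ESC or without R1 EpiLC without activin A) and 14 were higher when 1 library was left out. Among the 16 of them that EpiLCs lower, 2 reached the EpiLC level, 8 were part way and 6 were not reached.

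The genes that stayed at their ESC level include the transcription factor Tfcp2l1, which LIF and Stat3 drive. Tfcp2l1 was at 175, 117 and 166 FPKM in ESC, 7.44, 8.79 and 3.58 in EpiLC, 126 with no dox and 148 with dox. The dox library lay inside the ESC range and apart from EpiLC (log2 difference 4.36 ± 0.45 (SE), adjusted p = 0.00373), and the Otx2-/- EpiLC library was at 4.15. Prdm14, a repressor of FGF signalling and of the methyltransferases in naive cells, stood at 14.4, 23.2 and 20.5 FPKM in ESC, 1.26, 2.89 and 0.779 in EpiLC and 20.7 in the dox library (log2 difference 3.12 ± 0.46 (SE), adjusted p = 0.011). Tbx3, a T-box factor of naive cells, was 72, 47.7 and 62.7 FPKM in ESC, 0.797, 0.988 and 0.571 in EpiLC, 67.7 with no dox and 34 with dox (log2 difference 4.30 ± 0.27 (SE), adjusted p = 0.000809), below the ESC range and far above EpiLC.

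Other naive factors lay between ESC and EpiLC. Klf4, a Krüppel-like factor, was 101, 73.7 and 88.4 FPKM in ESC, 1.09, 0.84 and 0.905 in EpiLC, 73.2 with no dox and 22.8 with dox (log2 difference 3.61 ± 0.22 (SE), adjusted p = 0.000752), a position of 34.3%. Zfp42, known as Rex1 and a common reporter of the naive state, was 456, 430.2 and 502 FPKM in ESC, 37.6, 39.2 and 28.9 in EpiLC and 136 with dox (log2 difference 1.93 ± 0.22 (SE), adjusted p = 0.00528), a position of 47.6%. Both lay between groups that do not overlap. Esrrb, an orphan nuclear receptor, was 196 FPKM without dox and 45 with dox, against 17.4, 21.5 and 12.9 in EpiLC (log2 difference 1.36 ± 0.28 (SE), adjusted p = 0.0276, not called in 3 of 15 alternatives with a highest adjusted p of 0.0847).

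Nanog, a homeobox factor of the naive core, stood at 364, 502 and 545 FPKM in ESC, 106, 164 and 85.8 in EpiLC, 454 with no dox and 150.0 with dox. The dox value lay inside the EpiLC range, at 80.6% of the way, and the difference from EpiLC did not pass the test (log2 difference 0.39 ± 0.39 (SE), adjusted p = 0.552). Nr0b1, which encodes the nuclear receptor Dax1, was 66 to 71.6 FPKM in ESC, 6.28, 12.3 and 10.7 in EpiLC and 5.99 with dox, a position of 121.1% (log2 difference -0.58 ± 0.33 (SE), adjusted p = 0.293). Dppa3, known as Stella and high in the early germ line, belongs to the naive list but EpiLCs here had more of it than ESCs. Its level was 2.07, 4.06 and 1.65 FPKM in ESC, 8.12, 6.59 and 4.55 in EpiLC, 5.55 with no dox and 68.1 with dox, which lay above every EpiLC library (log2 difference 3.25 ± 0.43 (SE), adjusted p = 0.00745).

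**Figure D2:**
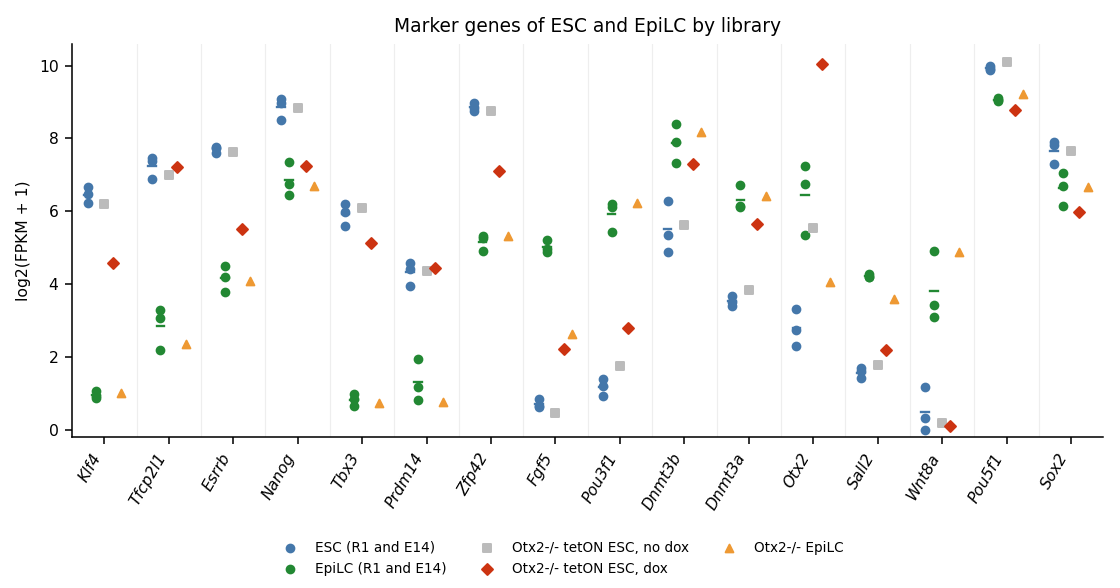
log2(FPKM + 1) of 16 marker genes in single libraries (points), with short lines at the means of the 3 ESC and the 3 EpiLC libraries. With dox (red) Tfcp2l1 and Prdm14 sit at the ESC level, Klf4, Zfp42, Fgf5 and Pou3f1 lie between the states, Nanog, Dnmt3a and Dnmt3b lie at or near EpiLC, and Otx2 lies above all other libraries.

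Several targets of LIF and Stat3, which ESC medium keeps active, had ESC levels with dox. Of 10 tested, 5 were higher in the dox library than in EpiLC and 0 lower, and between 4 and 5 were higher in each fit that left out 1 library. Of the 6 that EpiLCs lower, 4 were not reached and 2 were part way. Socs3, the feedback inhibitor of Jak and Stat3, was 35.4, 28.9 and 46.2 FPKM in ESC, 2.53, 2.01 and 2.21 in EpiLC, 40.1 with no dox and 59.9 with dox, above every ESC library (log2 difference 4.23 ± 0.27 (SE), adjusted p = 0.00091). Bcl3, an atypical I-kappa-B protein, stood at 31.2 FPKM with dox against 24.3 to 43.1 in ESC and 1.55 to 2.3 in EpiLC (log2 difference 3.45 ± 0.33 (SE), adjusted p = 0.00303).

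Most factors that both states share did not differ from EpiLC by the test. Of 14 shared pluripotency genes tested, 1 was higher (Sall4) and 2 were lower, with a median log2 difference of -0.63, and the counts were 0 and 1 without either of the R1 EpiLC libraries. Pou5f1, which encodes Oct4, was 1018, 957 and 947 FPKM in ESC, 525, 548 and 528 in EpiLC, 1088 with no dox and 440.1 with dox (log2 difference -0.28 ± 0.17 (SE), adjusted p = 0.326). Sox2, its partner, was 156, 236 and 225 FPKM in ESC, 103, 131 and 69.8 in EpiLC, 202 with no dox and 61.6 with dox (log2 difference -0.66 ± 0.39 (SE), adjusted p = 0.306). Both dox values lay below the lowest EpiLC library, yet neither difference passed the test.

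Genes of the formative and primed epiblast differed widely in how far they came. Of 25 tested, 2 were higher in the dox library than in EpiLC and 10 were lower, with a median log2 difference of -1.59, and the counts ran from 0 and 6 (without R1 EpiLC without activin A) to 2 and 13 (without R1 ESC replicate 1). Of the 17 that EpiLCs raise, 3 overshot, 3 reached, 4 were part way, 5 were not reached and 2 were opposite. Otx2, the gene induced by design, counts among the 2 higher and the 3 that overshot. Fgf5, the FGF ligand that marks the postimplantation epiblast, was 0.809, 0.59 and 0.566 FPKM in ESC, 28.4, 35.8 and 30.4 in EpiLC, 0.373 with no dox and 3.63 with dox (log2 difference -2.80 ± 0.21 (SE), adjusted p = 0.0015). The Otx2-/- EpiLC library was also low, at 5.18 FPKM, so for Fgf5 the line moves with the result and its part was not tested.

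Pou3f1, known as Oct6, was 0.921, 1.66 and 1.32 FPKM in ESC, 72.2, 42 and 68.9 in EpiLC, 2.38 with no dox and 6.01 with dox (log2 difference -3.11 ± 0.35 (SE), adjusted p = 0.00495), while the Otx2-/- EpiLC library reached 74.2. Sall2, a spalt-like zinc-finger factor, was 2.25, 1.67 and 2.05 FPKM in ESC, 17.2, 17.5 and 18.4 in EpiLC and 3.59 with dox (log2 difference -2.03 ± 0.19 (SE), adjusted p = 0.00293). Both dox values sat above ESC and well below EpiLC. The ligand gene Wnt8a stayed at 0.0714 FPKM with dox against 7.57, 9.8 and 29.1 in EpiLC (log2 difference -3.71 ± 0.76 (SE), adjusted p = 0.0283, between 0.0234 and 0.0643 over the alternatives). Zic2, a zinc-finger factor that EpiLCs raise, lay just below its ESC range, with 18.5, 27.7 and 30.3 FPKM in ESC, 69.2, 63.1 and 48.1 in EpiLC and 17.5 with dox (log2 difference -1.71 ± 0.33 (SE), adjusted p = 0.0235).

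DNA methyltransferases were among the formative genes that reached EpiLC. Dnmt3a, which methylates unmodified DNA, was 9.63, 10.5 and 11.7 FPKM in ESC, 69.4, 68.4 and 104 in EpiLC, 13.4 with no dox and 48.9 with dox, a position of 75.5%. The dox value lay below all 3 EpiLC libraries and the difference did not pass the test (log2 difference -0.68 ± 0.28 (SE), adjusted p = 0.155). Dnmt3b, which acts with it, was 77.1, 28.6 and 39.7 FPKM in ESC, 239, 159 and 337 in EpiLC, 48.5 with no dox and 157 with dox, a position of 75.9% (log2 difference -0.57 ± 0.60 (SE), adjusted p = 0.565). Both positions lie just past the 75% that counts as reached. Tet2, an enzyme that oxidises methylcytosine and that EpiLCs lower, was 33.3, 39.9 and 38.6 FPKM in ESC, 10.3, 13.1 and 8.71 in EpiLC, 27.1 with no dox and 6.57 with dox (log2 difference -0.61 ± 0.24 (SE), adjusted p = 0.152). Its level lay below every EpiLC library. Of the 8 genes of DNA methylation tested, 0 passed in either direction with limma, also in each of the 15 alternatives, while 2 were lower and 0 higher at an unadjusted p under 0.05.

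Other raised genes lay closer to EpiLC or inside its range. Car4, a membrane-anchored carbonic anhydrase, had the largest EpiLC step of the genes that reached, with 0.122, 0.211 and 0.318 FPKM in ESC, 76.9, 53.5 and 62 in EpiLC, 0.193 with no dox and 51.3 with dox, a position of 94.7% (log2 difference -0.30 ± 0.24 (SE), adjusted p = 0.441). The Otx2-/- EpiLC library had 22.7 FPKM. Rab15, a GTPase of endosome recycling, was 2.08, 4.91 and 3.18 FPKM in ESC, 30, 24.7 and 21.2 in EpiLC and 31.2 with dox (log2 difference 0.31 ± 0.38 (SE), adjusted p = 0.625). Lamb1, a laminin chain, was 10.3, 7.43 and 6.27 FPKM in ESC, 49.2, 42 and 48.9 in EpiLC and 38.6 with dox (log2 difference -0.26 ± 0.27 (SE), adjusted p = 0.553). Mmp25, a membrane-bound matrix metalloproteinase, was 0.369, 0.546 and 0.661 FPKM in ESC, 7.95, 5.84 and 12.8 in EpiLC and 6.75 with dox (log2 difference -0.29 ± 0.38 (SE), adjusted p = 0.66). Inadl, a scaffold of epithelial polarity complexes, was 1.51, 0.988 and 1.2 FPKM in ESC, 11, 11.4 and 11.8 in EpiLC and 9.45 with dox (log2 difference -0.25 ± 0.20 (SE), adjusted p = 0.444). Of these 5, Rab15 lay above the highest EpiLC library, Mmp25 inside the range, and the other 3 below it.

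Genes that overshot include keratins of simple epithelia. Krt18 was 2.32, 3.06 and 2.2 FPKM in ESC, 70.9, 84.6 and 20.6 in EpiLC, 2.66 with no dox and 144 with dox. Its partner Krt8 was 7.71, 3.4 and 4.54 FPKM in ESC, 16.5, 14.3 and 8.46 in EpiLC, 8.87 with no dox and 29.7 with dox. Both dox values lay above all EpiLC libraries, which differed among themselves with E14 lowest, and neither difference passed the test (log2 difference 1.51 ± 0.73 (SE), adjusted p = 0.219 for Krt18, log2 difference 1.17 ± 0.47 (SE), adjusted p = 0.152 for Krt8). Krt19, another such keratin, was 1.48, 0.673 and 1.12 FPKM in ESC, 8.43, 6.1 and 4.38 in EpiLC, 14.5 with no dox and 21.7 with dox, and it passed (log2 difference 1.67 ± 0.36 (SE), adjusted p = 0.0334, not called in 4 of 15 alternatives with a highest adjusted p of 0.0878). The cells without dox already lay above EpiLC for Krt19.

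Pdlim3 and Lad1 also overshot. Pdlim3, a PDZ and LIM protein of actin filaments, was 0.0862, 0.381 and 0.35 FPKM in ESC, 6.69, 5.88 and 3.58 in EpiLC, 2.11 with no dox and 8.46 with dox (log2 difference 0.60 ± 0.33 (SE), adjusted p = 0.277). Lad1, the anchoring filament protein ladinin, was 1.31, 0.521 and 0.1 FPKM in ESC, 6.37, 3.88 and 7.64 in EpiLC and 10.1 with dox (log2 difference 0.72 ± 0.48 (SE), adjusted p = 0.356). The dox library was the highest for both, and neither difference passed the test.

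A few other epithelial genes were below EpiLC. Of 15 epithelial junction and keratin genes tested, 2 were higher and 3 lower than in EpiLC, with a median log2 difference of -1.36, and between 2 (without either R1 EpiLC library) and 8 (without R1 ESC replicate 1) were lower when 1 library was left out. Of the 10 that EpiLCs raise, 3 overshot, all of them the keratins above, 0 reached, 4 were part way and 3 were not reached. Esrp1, the splicing regulator of epithelial transcripts, was 4.85, 1.3 and 0.923 FPKM in ESC, 42.3, 42.6 and 41.4 in EpiLC, 40.6 in Otx2-/- EpiLC and 1.49 with dox (log2 difference -4.11 ± 0.58 (SE), adjusted p = 0.00949). Cldn7, a tight junction claudin, was 1.5, 2.08 and 1.49 FPKM in ESC, 59.5, 65.9 and 42.9 in EpiLC and 8.29 with dox (log2 difference -2.60 ± 0.28 (SE), adjusted p = 0.00427). Epcam, an adhesion molecule of epithelia, was 174, 188 and 124 FPKM in EpiLC and 37.3 with dox, a difference that did not pass (log2 difference -2.07 ± 0.61 (SE), adjusted p = 0.0741). Rab25, an epithelial GTPase, was 22.8, 18.5 and 13.9 FPKM in EpiLC and 0.397 with dox (log2 difference -3.77 ± 0.29 (SE), adjusted p = 0.00173).

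Mesenchymal genes were mostly higher with dox than in EpiLC, but as a sum lower than in ESC. Of 6 tested, 4 were higher than in EpiLC and 0 lower, with a median log2 difference of 1.62, and 2 were higher without E14 ESC and without either R1 EpiLC library. The list summed to 243.8 FPKM with dox, 474.5 without dox, 429.8 to 572.6 in ESC and 92.55 to 110 in EpiLC. Of the 3 that EpiLCs lower, 1 reached, 1 was part way and 1 was not reached. Cdh2, 1 of the 4 called, lost its call in 10 of 14 alternatives. Snai1, a repressor of E-cadherin, was 5.99, 1.13 and 2.46 FPKM in ESC, 1.2, 0.746 and 0.92 in EpiLC, 4.46 with no dox and 39.2 with dox, above every other library (log2 difference 4.37 ± 0.59 (SE), adjusted p = 0.00839). Zeb1, a repressor with a like role, kept its ESC level, with 4.35, 7.67 and 6.56 FPKM in ESC, 0.358, 0.444 and 0.379 in EpiLC and 5.07 with dox (log2 difference 2.12 ± 0.29 (SE), adjusted p = 0.0085). Vim and Fn1, which encode vimentin and fibronectin, had 115 and 72.6 FPKM with dox, 262 and 198 without dox, and 39.8 to 44.1 and 46.1 to 65.1 in EpiLC. Vim passed the test (adjusted p = 0.0361, between 0.0123 and 0.106 over the alternatives) and Fn1 did not (adjusted p = 0.227). The adhesion molecule Jam2, on the epithelial list but high in ESC, was 74.6, 84.1 and 92.7 FPKM in ESC, 0.775, 1.93 and 0.504 in EpiLC, 64.3 with no dox and 11.9 with dox (log2 difference 2.70 ± 0.37 (SE), adjusted p = 0.0085), so it lay between the states.

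Some targets of ERK, the kinase that MEK activates, were lower with dox than in EpiLC. The dox library was grown with a MEK inhibitor and the EpiLC libraries without one, so the medium and the induced Otx2 cannot be told apart in this comparison. The ESC libraries and the tetON cells without dox were grown with the same inhibitor. Of 12 tested, 6 were lower in the dox library than in EpiLC and 0 higher, with a median log2 difference of -1.95, and 2 were lower without R1 EpiLC without activin A and 3 without E14 ESC. Spry1, a feedback inhibitor of receptor tyrosine kinases, was 5.2, 5.91 and 5.43 FPKM in ESC, 20.5, 20 and 22.1 in EpiLC, 4.19 with no dox and 3.41 with dox, below every ESC library (log2 difference -2.31 ± 0.17 (SE), adjusted p = 0.0015). Dusp6, the phosphatase of ERK, was 28.6, 8.66 and 10.3 FPKM in ESC, 44.5, 30.1 and 74.7 in EpiLC, 12.7 with no dox and 2.66 with dox (log2 difference -3.70 ± 0.72 (SE), adjusted p = 0.0247, above 0.05 without E14 ESC and without R1 EpiLC without activin A, at most 0.0743). Etv4, an ETS factor, was 37.2, 26.3 and 34.3 FPKM in ESC, 24.1, 24.3 and 38.5 in EpiLC and 6.1 with dox (log2 difference -2.04 ± 0.33 (SE), adjusted p = 0.0141). In all 3 the dox library was below both ESC and EpiLC.

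Some Nodal and Activin targets were low with dox. Of 9 tested, 3 were lower than in EpiLC and 0 higher, with a median log2 difference of -1.29, and 1 was lower without R1 ESC replicate 2, without E14 ESC or without R1 EpiLC with activin A. Skil, which encodes the Smad co-repressor SnoN, was 11.2, 22.9 and 16.9 FPKM in ESC, 93.3, 108 and 103 in EpiLC, 12.9 with no dox and 8.92 with dox (log2 difference -3.36 ± 0.35 (SE), adjusted p = 0.00386). Lefty1, an inhibitor of Nodal and one of its targets, was 34.3, 111 and 140.5 FPKM in EpiLC, lowest without activin A, and 7.33 with dox (log2 difference -3.31 ± 0.75 (SE), adjusted p = 0.0377, between 0.0122 and 0.0951 over the alternatives). Nodal itself was 30.2, 41.3 and 51.8 FPKM in EpiLC and 46.8 with dox (log2 difference 0.22 ± 0.42 (SE), adjusted p = 0.768).

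Other signalling lists were short and held few calls, beside 7.55% higher and 5.71% lower over all genes. Of 7 Wnt targets tested, 1 was higher (0 without either R1 EpiLC library and 2 without R1 ESC replicate 1) and 2 were lower. The 2 were Tcf7 and Lef1, transcription factors of the pathway, with 54.2, 58.9 and 52.2 FPKM in EpiLC and 16.7 with dox for Tcf7 (log2 difference -1.67 ± 0.16 (SE), adjusted p = 0.00342). Of 7 BMP targets, 1 was higher and 0 lower, and 3 were higher without either R1 ESC replicate. The median log2 difference of the BMP targets was 0.89. At an unadjusted p under 0.05 in limma, 5 of them were higher and 0 lower, beside 2 higher and 2 lower among the Wnt targets. Id1, an inhibitor of basic helix-loop-helix factors, was 12.9, 7.71 and 13 FPKM in ESC, 1.9, 1.88 and 1.49 in EpiLC and 12.6 with dox (log2 difference 2.31 ± 0.31 (SE), adjusted p = 0.00802). Of 7 FGF ligands and receptors, 1 was lower, Fgf5. The receptor Fgfr1 was 17.2, 15 and 23.6 FPKM in EpiLC and 24 with dox (log2 difference 0.38 ± 0.33 (SE), adjusted p = 0.476).

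The metabolic lists differed in their number of calls. Of 16 genes of cholesterol synthesis and uptake tested, 10 were lower with dox than in EpiLC and 0 higher, with a median log2 difference of -1.0, and 3 were lower without either R1 EpiLC library. Of the 9 that EpiLCs raise, 2 were part way, 4 not reached and 3 opposite. Idi1, the isomerase of the pathway, was 62.4, 42.9 and 41.8 FPKM in ESC, 104, 111 and 103 in EpiLC, 36.9 with no dox and 22.8 with dox (log2 difference -2.17 ± 0.25 (SE), adjusted p = 0.00545). Insig1, a sterol sensor, was 46.8, 52.2 and 53 FPKM in ESC, 153, 182 and 113 in EpiLC and 33.7 with dox (log2 difference -2.09 ± 0.27 (SE), adjusted p = 0.00751). Both lay below every ESC library, and EpiLC lay above ESC. Of 16 glycolysis genes 1 was lower (Pdk1, 62.2 to 96.2 FPKM in EpiLC and 30.1 with dox), and of 18 respiratory chain genes 2 were higher (Cox6a1 and Uqcrq), and both counts were 0 without E14 ESC and without either R1 EpiLC library. The glycolysis count is close to the share lower over all genes (5.71%). In 3 other lists the shares called were also close to those over all genes (7.55% higher and 5.71% lower). Of 14 cell cycle genes 1 was lower and 0 higher, of 12 extracellular matrix and integrin genes 1 was higher and 0 lower, and of 12 p53 and stress genes 1 was higher and 1 lower. The latter were Atf3, a stress-induced factor that passed the filter through the tetON libraries only, with 0.213 to 0.542 FPKM in EpiLC and 6.4 with dox (log2 difference 2.42 ± 0.23 (SE), adjusted p = 0.00319), and Gadd45a, a damage response gene, with 22.1 to 23.6 FPKM in EpiLC and 4.48 with dox (log2 difference -2.13 ± 0.25 (SE), adjusted p = 0.0056).

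**Figure D3:**
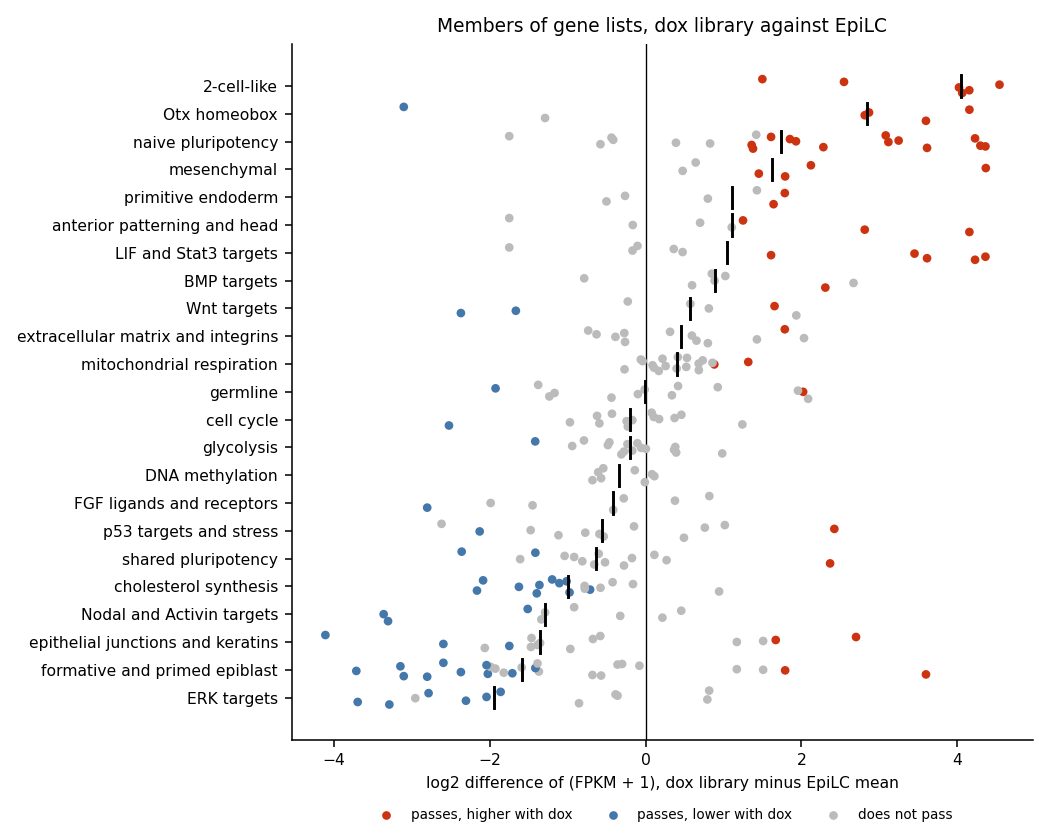
log2 difference of (FPKM + 1), dox library minus EpiLC mean, of the tested members of 23 gene lists (points), with the list median as a short black line. Members that passed limma are red where higher and blue where lower with dox, and grey members did not pass. ERK targets, formative genes and cholesterol synthesis lie to the left with medians of -1.95, -1.59 and -1.0, and naive genes to the right with 1.73.

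Some of the genes farthest above EpiLC with dox were low in both ESC and EpiLC. Guca1a (mm9, chromosome 17 at 47531507 to 47537533), a calcium-binding activator of guanylate cyclase known from photoreceptors, had the largest difference. It was 1, 1.86 and 1.82 FPKM in ESC, 3.81, 3.91 and 2.76 in EpiLC, 3.14 with no dox and 315 with dox (log2 difference 6.15 ± 0.28 (SE), adjusted p = 0.000408). Sept4, a septin, was 0.885, 0.42 and 0.24 FPKM in EpiLC, 0.124 with no dox and 37.4 with dox (log2 difference 4.68 ± 0.29 (SE), adjusted p = 0.000779). The dox library lay above every other library in both genes, and the library without dox lay inside the EpiLC range for Guca1a and below it for Sept4. The filter was a mean of 1 FPKM over libraries that include the dox library. Sept4 passed it through that library only, so a difference was built into its selection.

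The promoters of 3 genes are printed to set the gene farthest above EpiLC (Guca1a) beside 1 described above that reached EpiLC (Car4) and 1 that lay part way (Fgf5). They are the 250 bases upstream of the start in RefSeq on GRCm38.p6, a later build than the mm9 of the expression values, at chr17:47400607-47400856 (minus strand), chr11:84957504-84957753 (plus strand) and chr5:98253934-98254183 (plus strand). Capitals mark the core TAATCC that Otx-type homeodomains are known to bind, or GGATTA where it lies on the other strand.
Guca1a: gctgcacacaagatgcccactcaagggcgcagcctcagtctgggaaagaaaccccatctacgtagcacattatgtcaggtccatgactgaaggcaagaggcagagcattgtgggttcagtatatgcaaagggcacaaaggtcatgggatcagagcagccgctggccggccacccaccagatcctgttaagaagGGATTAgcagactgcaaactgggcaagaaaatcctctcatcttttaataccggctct
Car4: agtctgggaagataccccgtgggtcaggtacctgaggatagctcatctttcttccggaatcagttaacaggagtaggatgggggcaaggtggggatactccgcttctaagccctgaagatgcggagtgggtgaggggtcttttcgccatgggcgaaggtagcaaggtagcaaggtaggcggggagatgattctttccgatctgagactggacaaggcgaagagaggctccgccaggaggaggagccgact
Fgf5: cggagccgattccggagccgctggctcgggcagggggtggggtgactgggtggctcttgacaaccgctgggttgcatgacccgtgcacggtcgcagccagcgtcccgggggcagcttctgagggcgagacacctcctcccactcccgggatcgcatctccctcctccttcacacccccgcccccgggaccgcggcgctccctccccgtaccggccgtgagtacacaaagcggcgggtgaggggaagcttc
The Guca1a window holds 1 match, starting 57 bases upstream of the start, and the windows of Car4 and Fgf5 hold 0. The window of Krt18, which overshot EpiLC, was also read and is not printed, and it holds 0. Among all 32851 RefSeq windows of this length, 6.25% hold the core on either strand. RefSeq windows were found by symbol for 64 of the 100 raised genes that reached EpiLC and for 184 of the 281 not reached. The share was 6.1% of 82 windows of raised genes that reached EpiLC, 3.39% of 59 that overshot, 4.66% of 236 part way, 2.79% of 251 not reached and 1.49% of 67 opposite, and for lowered genes it was between 3.97% and 8.33% over the 5 classes. A match is a description of these letters and not a binding site, and a window without one says only that the letters are not in it.

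Among the 12 largest positive differences, the library without dox already lay above every EpiLC library in 10, and the dox library above every other library in 10. Crxos1, an entry named for its place opposite the photoreceptor gene Crx, was 8.26, 16.6 and 17.7 FPKM in ESC, 2.54, 2.9 and 3.61 in EpiLC, 38.8 with no dox, 27.9 in Otx2-/- ESC and 190.4 with dox (log2 difference 5.58 ± 0.41 (SE), adjusted p = 0.0015). No strand was kept in the values as far as the sources used here say, and Crx itself was 0.915 FPKM with dox. Spesp1, a protein of the sperm head, was 0.243, 0.333 and 0.205 FPKM in EpiLC, 4.24 with no dox and 27.2 with dox (log2 difference 4.49 ± 0.24 (SE), adjusted p = 0.000603). Sp110, a nuclear body protein whose entry overlaps Sp140, was 0.87, 1.3 and 1.47 FPKM in EpiLC, 6.48 with no dox and 49.8 with dox (log2 difference 4.53 ± 0.29 (SE), adjusted p = 0.000962). D17Ertd648e, whose entry overlaps Park2, was 6.02, 8.51 and 8.33 FPKM in EpiLC, 122 with no dox and 211 with dox (log2 difference 4.64 ± 0.60 (SE), adjusted p = 0.00729). Serpinb1a, an inhibitor of neutrophil proteases, was 0.116, 0.15 and 0.151 FPKM in EpiLC, 3.04 with no dox and 21.7 with dox (log2 difference 4.31 ± 0.29 (SE), adjusted p = 0.00115). In these 5 genes the Otx2-/- ESC library also lay above every EpiLC library, and the part of the line was not tested. Spesp1 and Serpinb1a were under 1 FPKM in every EpiLC library, and the mean used as a filter includes the tetON libraries, where they were higher.

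Ckb, the brain-type creatine kinase, was instead a gene that had not left its ESC level, with 373, 293 and 342 FPKM in ESC, 15.6, 14.5 and 15.3 in EpiLC and 323 with dox (log2 difference 4.33 ± 0.19 (SE), adjusted p = 0.000324).

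Of the 12 largest negative differences, 11 were genes that EpiLCs raise. Adm, which encodes the peptide hormone adrenomedullin, was 0.145, 1.72 and 0.529 FPKM in ESC, 51.1, 44.5 and 16.5 in EpiLC and 0.447 with dox (log2 difference -4.58 ± 0.71 (SE), adjusted p = 0.0129). Wt1, a zinc-finger factor of the kidney and gonad, was 0.655, 0.657 and 0.675 FPKM in ESC, 20.9, 12.9 and 40.8 in EpiLC and 0.206 with dox (log2 difference -4.27 ± 0.54 (SE), adjusted p = 0.00699). Slc40a1, the iron exporter ferroportin, was 0.157, 0.0939 and 0.235 FPKM in ESC, 42.7, 42 and 15.7 in EpiLC and 0.908 with dox (log2 difference -4.05 ± 0.55 (SE), adjusted p = 0.00816). The dox library lay inside the ESC range for Adm, below it for Wt1 and above it for Slc40a1, and in all 3 it was below every EpiLC library. Calca, the gene of calcitonin and CGRP, was 6.19, 8.76 and 4.71 FPKM in ESC, 52.4, 55.4 and 24.5 in EpiLC, 6.71 with no dox and 0.987 with dox (log2 difference -4.42 ± 0.51 (SE), adjusted p = 0.00518), and Myb, a transcription factor of progenitor cells, was 5.4, 2.67 and 1.97 FPKM in ESC, 18, 22.4 and 17.1 in EpiLC, 2.57 with no dox and 0.36 with dox (log2 difference -3.88 ± 0.42 (SE), adjusted p = 0.00437). Both lay below every ESC library with dox.

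Gbp2 and Gbp1, GTPases of the interferon response, need the Otx2-/- EpiLC library beside them. Gbp2 was 0.0196, 0.012 and 0.0204 FPKM in ESC, 19.3, 27.9 and 8.95 in EpiLC, 2.09 in Otx2-/- EpiLC and 0.222 with dox (log2 difference -3.88 ± 0.54 (SE), adjusted p = 0.00891). Gbp1 was 0.0351, 0.00966 and 0.0179 FPKM in ESC, 14.5, 21.5 and 6.18 in EpiLC, 1.28 in Otx2-/- EpiLC and 0.0254 with dox (log2 difference -3.73 ± 0.57 (SE), adjusted p = 0.0125). Both genes were under 1 FPKM in ESC and with dox, and Otx2-/- EpiLC lay below every EpiLC library. The part of the line in these differences was not tested.

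Genes at other positions filled the range between the states. Cthrc1, a secreted collagen-like protein, was 0.591, 0.402 and 0.414 FPKM in ESC, 32, 31.6 and 32.8 in EpiLC, 25.4 in Otx2-/- EpiLC and 2.29 with dox (log2 difference -3.33 ± 0.18 (SE), adjusted p = 0.000603), a position of 25.9%. G2e3, an ubiquitin ligase that EpiLCs raise, was on the opposite side, with 12.8, 19.2 and 17.2 FPKM in ESC, 81, 98.5 and 53.5 in EpiLC and 8.49 with dox (log2 difference -3.01 ± 0.37 (SE), adjusted p = 0.00642). Tdh, the threonine dehydrogenase on which naive ESCs depend, was a lowered gene part way, with 449, 246 and 321 FPKM in ESC, 14.2, 5.34 and 28.9 in EpiLC, 312 with no dox and 71.5 with dox, a difference that did not pass (log2 difference 2.35 ± 0.79 (SE), adjusted p = 0.104).

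**Figure D4:**
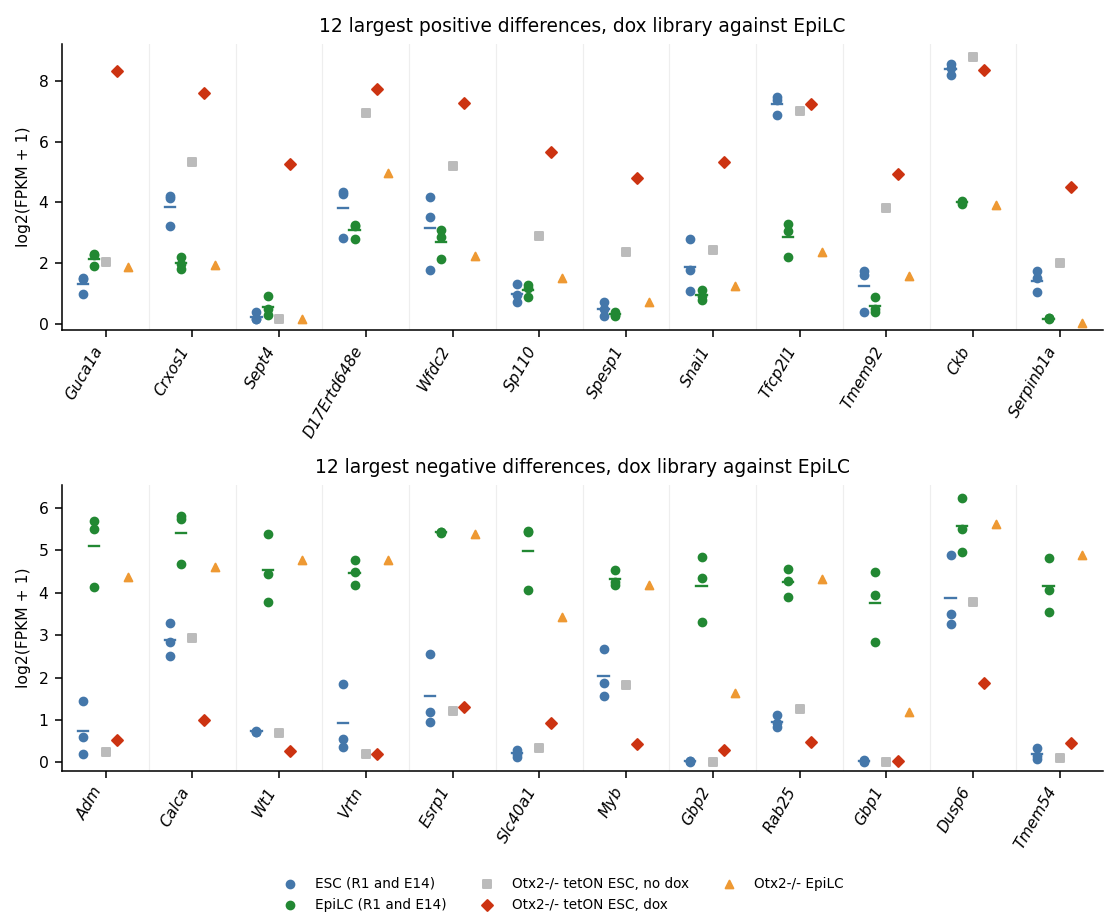
log2(FPKM + 1) in single libraries of the 12 genes with the largest positive (top) and the 12 with the largest negative (bottom) difference between the dox library and EpiLC among genes that passed limma and met the naming rule. Short lines are means of 3 libraries. For Guca1a and Sept4 the dox library (red) stands alone, for Crxos1 and D17Ertd648e the library without dox (grey) lies between, and for Tfcp2l1 and Ckb it stays with ESC.

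The lowered genes that reached EpiLC include several with large steps. Ntn1, the guidance cue netrin-1, was 42.6, 20.8 and 30.7 FPKM in ESC, 0.383, 0.17 and 0.27 in EpiLC, 18.5 with no dox and 0.877 with dox, a position of 87.8% (log2 difference 0.56 ± 0.37 (SE), adjusted p = 0.352). Notum, an enzyme that inactivates Wnt proteins, was 33.6, 18.1 and 28 FPKM in ESC, 0.428, 0.539 and 0.425 in EpiLC, 18.6 with no dox and 1.18 with dox (log2 difference 0.57 ± 0.33 (SE), adjusted p = 0.291). Tubb3, a neuronal tubulin that is abundant in these ESCs, was 49.8, 34.5 and 50.1 FPKM in ESC, 4.71, 2.36 and 6.83 in EpiLC, 46.4 with no dox and 2.5 with dox (log2 difference -0.60 ± 0.47 (SE), adjusted p = 0.431). In Ntn1 and Notum the dox value lay above the 3 EpiLC libraries and far below ESC, and in Tubb3 inside the EpiLC range. Krt42, a keratin, lay beyond EpiLC, with 6.3, 6.75 and 7.9 FPKM in ESC, 0.769, 1.5 and 0.955 in EpiLC, 11.3 with no dox and 0.223 with dox, but its difference did not pass (log2 difference -0.75 ± 0.26 (SE), adjusted p = 0.108).

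A few lowered genes went the opposite way. Fbxo15, an F-box gene of ESCs, was 128, 158 and 181 FPKM in ESC, 46.4, 43.6 and 20.3 in EpiLC, 244 with no dox and 489.8 with dox, above every ESC library (log2 difference 3.79 ± 0.47 (SE), adjusted p = 0.00646). Trap1a, a tumour rejection antigen, was 87.4, 136 and 109 FPKM in ESC, 26.5, 29.1 and 29.3 in EpiLC, 139.6 with no dox and 197 with dox (log2 difference 2.76 ± 0.25 (SE), adjusted p = 0.00293). In both genes the library without dox was also above the highest ESC library. Cltb, a clathrin light chain, was 45.7, 19.2 and 24.7 FPKM in ESC, 4.9, 5.06 and 7.68 in EpiLC, 28.3 with no dox and 68.3 with dox (log2 difference 3.35 ± 0.47 (SE), adjusted p = 0.00949). Sall4, a factor of the shared list, was 104, 53.2 and 65.5 FPKM in ESC, 67.1 without dox and 124 with dox, against 22.9, 17.6 and 31.1 in EpiLC (log2 difference 2.37 ± 0.43 (SE), adjusted p = 0.0212, above 0.05 without either R1 EpiLC library, at most 0.0692).

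Some patterning genes were higher with dox than in EpiLC, at low to moderate levels. Of 7 anterior patterning and head genes tested out of 14 listed, 3 were higher with dox than in EpiLC and 0 lower. A gene was tested at a mean of 1 FPKM over libraries that include the tetON ones, and 1 of the 3, Hesx1, passed that filter only through them, so a difference was built into its selection. Another of the 3, En2, is a gene that EpiLCs lower (log2 difference -1.21 between EpiLC and ESC). With dox it stayed near its level without dox (log2 ratio -0.03). The call of En2 (limma adjusted p = 0.0252) was lost in 4 of 14 alternatives. Between 1 (without R1 EpiLC without activin A) and 5 (without R1 ESC replicate 1) were higher when 1 library was left out, and 0 at a mean of at least 5 FPKM, where few members are tested. The list summed to 70.3 FPKM with dox, 100.1 without dox, 87.8 to 108 in ESC and 25.7 to 39.1 in EpiLC, so as a sum it was below ESC. Among 10 Otx-related and associated homeobox genes, 4 passed the filter on the ESC and EpiLC libraries, of which 2 were higher (Otx2 and Gsc) and 1 was lower (Pou3f1), and Hesx1 and Dmbx1 entered through the tetON libraries. Hesx1, a homeobox gene of the forebrain and pituitary, was 0.279, 0.345 and 0.45 FPKM in ESC, 0.289, 0.0939 and 0.564 in EpiLC, 0.967 with no dox and 22.2 with dox (log2 difference 4.16 ± 0.26 (SE), adjusted p = 0.000809). Dmbx1, a paired-type homeobox gene of the midbrain, was 1.09, 0.824 and 1.23 FPKM in ESC, 0.191, 0.123 and 0.127 in EpiLC and 7.38 with dox (log2 difference 2.87 ± 0.21 (SE), adjusted p = 0.0015). Gsc, a homeobox gene of the organizer, was 0.126, 0.514 and 0.303 FPKM in EpiLC, 3.72 with no dox and 8.18 with dox (log2 difference 2.81 ± 0.50 (SE), adjusted p = 0.0188, above 0.05 without R1 EpiLC without activin A, at 0.0641). Since Gsc met the mean of 1 FPKM over the ESC and EpiLC libraries, its ESC mean lay above these EpiLC values. Rlbp1, a retinaldehyde-binding protein of the eye, was 4.53, 5.23 and 7.22 FPKM in ESC, 5.23, 5.35 and 3.8 in EpiLC and 20.4 with dox (log2 difference 1.90 ± 0.29 (SE), adjusted p = 0.0119).

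The defining genes of neural and eye tissue were low in the dox library. Pax6 and Neurog2, neural factors, were 0.501 and 0.134 FPKM, and Rax and Crx, factors of the eye field and the photoreceptors, were 0.235 and 0.915 FPKM. Rpe65 and Tyrp1, enzymes of the retina's pigment layer, were listed at 0. Of 4 neural genes tested out of 12 listed, 0 passed with limma and 1 was higher at an unadjusted p under 0.05. The neural list summed to 18.3 FPKM with dox, 64.8 without dox, 47.6 to 62.2 in ESC and 7.49 to 18.9 in EpiLC, so the dox library was at the upper end of EpiLC. Of 4 eye and photoreceptor genes tested out of 12 listed, 2 were higher (Rlbp1 and Mitf) and 0 lower, and the list summed to 37.3 FPKM with dox, 26.1 without dox, 23.8 to 43.8 in ESC and 8.25 to 11.8 in EpiLC. Mitf is a gene that EpiLCs lower (log2 difference -3.05 between EpiLC and ESC). It was lower with dox than without (log2 ratio -1.34) and lay part way, and its call was lost in 2 of 15 alternatives.

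Markers of other cell types were mostly low. Of 6 primitive endoderm genes tested, 2 were higher and 0 lower, and the list summed to 269 FPKM with dox, 184 without dox, 133 to 147 in ESC and 110 to 130 in EpiLC, of which Sparc, a matrix protein and the other gene called, gave 202 with dox. Gata4, a defining factor of that lineage, was 0.537 to 1.6 FPKM in ESC, 0.193 to 0.396 in EpiLC and 3.08 with dox (log2 difference 1.64 ± 0.32 (SE), adjusted p = 0.0248, above 0.05 without either R1 EpiLC library, at most 0.0729). Gata4 passed the filter through the tetON libraries only. In the dox library Gata6 and Sox17 were 1.2 and 0.256 FPKM. Of 4 trophoblast genes tested, 0 passed with limma and 0 had an unadjusted p under 0.05, with a sum of 24.6 FPKM with dox and 10.5 to 29.6 in EpiLC and with Cdx2 and Tpbpa listed at 0. Of 4 streak and mesoderm genes 1 was higher (Gsc), and T, the streak factor brachyury, was 0.198 FPKM. Fibroblast markers summed to 44.2 FPKM with dox, 54.9 without dox and 14.6 to 26.1 in EpiLC, with Timp1 and Acta2 called higher among 4 tested, although 0 were without R1 EpiLC without activin A or with the dox and EpiLC libraries fitted alone. Acta2 passed the filter through the tetON libraries only, so a difference was built into its selection. Blood markers summed to 2.35 FPKM with dox and 2.6 to 4.06 in EpiLC, with Ptprc and Hbb-b1 listed at 0. The 1 blood gene tested, Cd34, was lower (limma adjusted p = 0.0456) but lost its call in 7 of 12 alternatives, with adjusted p between 0.0289 and 0.0924. Of 13 germline genes 1 was higher (Tex19.1) and 1 lower (Prdm1), and both calls were lost without R1 EpiLC without activin A. Both germline counts are close to the shares over all genes (7.55% higher and 5.71% lower). The part of such cells in the differences above was not tested.

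Tested genes of the 2-cell-like state, a rare state of ESC cultures, were higher with dox. Of 10 listed, 4 had a mean of 1 FPKM or more over the ESC and EpiLC libraries, and all 4 were higher with dox than in EpiLC. The other 2 tested, also higher, passed the filter through the tetON libraries only. Zscan4d was 1.54, 3.25 and 3.11 FPKM in ESC, 0.62, 0.414 and 1.19 in EpiLC, 14.3 in Otx2-/- ESC, 17.7 without dox and 29.5 with dox (log2 difference 4.16 ± 0.38 (SE), adjusted p = 0.00293). The Otx2-/- libraries in ESC medium without induced Otx2 were also above R1 and E14, and the summed list was 128 FPKM with dox, 70.3 without dox, 6.38 to 15.3 in ESC and 2.19 to 4.95 in EpiLC. The Zscan4 genes are near-identical copies, so their values are uncertain one by one, and the part of the line in this result was not tested.

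The dox step within one line and the EpiLC step share no library and can be set side by side. Dox against no dox is 1 library against 1, with no replicate check, and among the 11854 genes measured in both, 586 (4.94%) were 2-fold or more higher with dox and 554 (4.67%) lower on log2(FPKM + 1). Of the 752 genes raised in EpiLC, 177 (23.5%) were higher with dox and 22 (2.93%) lower, and the 177 made up 30.2% of all genes higher with dox. Of the 667 genes lowered in EpiLC, 238 (35.7%) were lower with dox and 19 (2.85%) higher, and the 238 made up 43% of all genes lower with dox. The median log2 ratio of dox against no dox was 0.36 for raised genes, whose median EpiLC step was 1.52, and -0.64 for lowered genes, whose median step was -1.41. Across genes, which are not independent replicates, Pearson's r between the steps was 0.41 and Spearman's rho 0.34. Counted only at 5 FPKM or more in 1 of the pair, a floor that a raised gene can pass through the dox library alone, 121 of 321 raised genes (37.7%) were higher and 203 of 570 lowered genes (35.6%) were lower, beside 6.13% and 4.83% of all 9031 genes at that floor.

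**Figure D5:**
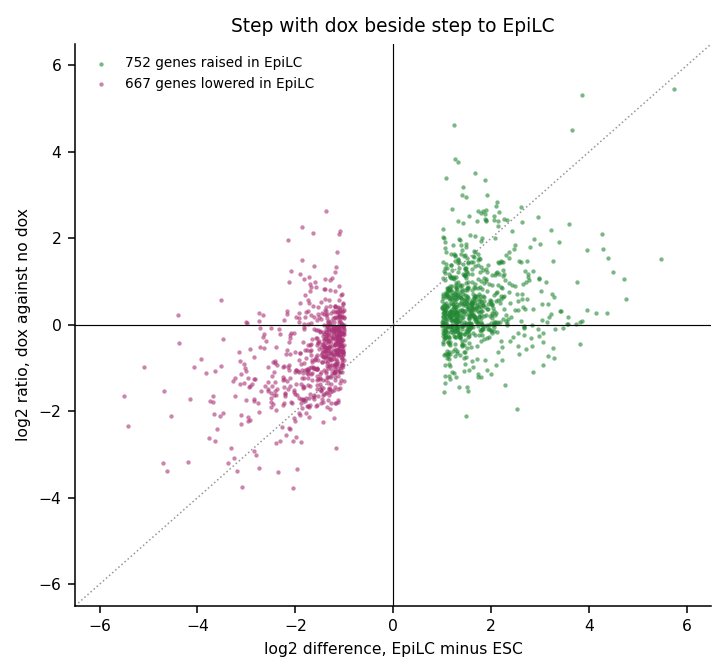
log2 ratio of (FPKM + 1) with dox against no dox (vertical axis, 1 library each) beside the log2 difference between EpiLC and ESC (horizontal axis, 3 libraries each) for genes raised (green) and lowered (purple) in EpiLC. On the dotted line both steps would be equal. The dox step was smaller at the median (0.36 against 1.52 and -0.64 against -1.41), and some genes lie on the other side of 0.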

How the data were processed

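RNA-seq of 10 mouse libraries was deposited as 1 table per library with FPKM values that the authors computed with Cufflinks after TopHat alignment to mm9, per the submitters' processing notes; the sources used here give no versions and no strand setting. Each table held 23112 entries, of which 17 exact repeats were dropped and 228 summed by symbol into 22867 symbols. FPKM hold no counts, so approximate depth was read from their smallest steps and no counting intervals are given. The file's starts were raised by 1 base to count from 1.

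The main comparison was limma 3.58.1 in R 4.3.3 on log2(FPKM + 1), with trend, over ESC, EpiLC, the dox and the no-dox library, for genes whose mean reached 1 FPKM, with Benjamini-Hochberg adjustment over all genes and calls at an adjusted p under 0.05. Folds on this scale understate changes of low genes. The EpiLC and ESC sets used limma with line as a term and a log2 difference of at least 1. Dox against no dox, 1 library each, was counted at 2-fold with at least 5 FPKM in 1 of the pair, or with no floor, a count added after seeing the data. On simulated data for dox against EpiLC with 12364 genes, 12 of 100 2-fold and 70 of 100 4-fold changes were recovered with 7 false calls. Most 2-fold changes were thus missed in that setting. Only these genes were changed, all with a mean above 5 FPKM. They are fewer than the genes called in the data (1640), so the share recovered does not carry over directly. The simulated dox library was made to vary like the others, so the false calls do not test that assumption.

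Genes were described in 29 lists (370 entries, 366 in the files). List counts leave out members under the mean of 1 FPKM and members listed at 0 in a library while their median is at least 5 FPKM (144 symbols, Tet1, Lama5 and Hmgcs1 among them). List counts over genes with a mean of 1 FPKM in the ESC and EpiLC libraries alone were added after seeing the data. Named are the markers, the 12 largest called differences each way, the 5 largest EpiLC steps of each position class and up to 6 members of each list, leaving out small RNAs, unnamed loci, near-identical families and overlapping symbols listed together. Other list members named in the text were chosen after their values were seen. Not every gene that the rule names is described. The comparison and the lists were chosen with earlier results of these data known.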

Additional observations from a re-analysis of the deposited data

How the results depend on the processing

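The number of genes higher with dox than in EpiLC was 1869 with no filter on low values and 614 at a mean of at least 5 FPKM. Leaving out 1 library gave between 329 and 1657 higher and between 192 and 1275 lower genes. The share of calls that were higher was 57% as deposited (934 and 706), 53.2% with median-ratio scaling (939 and 825), 52.8% with quantile normalization (1083 and 967) and 42.5% with one FPKM sum counted without Otx2 (733 and 990), a scaling chosen after seeing the data. Leaving out small RNAs and symbols listed at 0, also chosen then, gave 923 and 688. With a pseudocount of 5, 8.6% of raised and 26.9% of lowered genes counted as reached. At 4-fold, 159 genes were higher and 74 lower with dox than without.

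Of 140 named genes tested in limma, 105 were called, 63 of them under each of 15 alternatives, and 0 called genes reversed direction. Most losses came without R1 EpiLC without activin A (38), without R1 EpiLC with activin A (31), without E14 ESC (27) and with the dox and EpiLC libraries fitted alone (20). No paired analysis was possible because only the ESC titles carry replicate numbers, and the dox group is 1 library. With line (R1 or E14) as a term within ESC and EpiLC, 718 genes were higher and 537 lower, and 10 of the named calls were lost. Depth is known only approximately, and low FPKM values rest on few reads.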
